A study of Mus musculus with 15 samples.

Results

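Testes of homozygous mutants were compared with wild-type testes across all annotated long RNAs, to describe which pathways and cell types differed. The comparison rests on 6 of the 15 libraries of the series, chosen by their genotype labels: 3 libraries labelled Chr18+/+ and 3 labelled Chr18-/-. All came from testis of B6D2F1 mice at postnatal day 28. Homozygotes lack both copies of a locus on chromosome 18 that makes pachytene piRNAs, and the labels name no other allele or agent. The 3 Chr18+/- libraries of the same age and strain, which carry 1 copy, are given beside them. A genotype label is all that defines a group, and the labels give no method of deletion. The labels state neither that libraries came from separate animals nor whether wild-type mice were littermates of the mutants, so the p-values reflect only the spread among these libraries, which may be technical. RNA was ribosome-depleted and strand-specific, and counts on the strand of the kit came to 21684791 to 36936068 per library in wild type and 25783931 to 29205925 in homozygotes.

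Spermatogenesis runs from spermatogonia through meiosis to haploid spermatids, which first grow an acrosome and a flagellum and then compact their chromatin with protamines. In young mice these cells appear in order, because the first wave of spermatogenesis is still under way. Pachytene piRNAs are small RNAs bound by PIWI proteins, made from long precursors in meiotic spermatocytes and round spermatids. Sertoli cells nurse the germ cells within the tubule, and Leydig cells between the tubules turn cholesterol into testosterone.

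The targeted locus matched the labels in every library. The minus-strand precursor 18_qE1_36451_1 stood at 296, 269 and 255 CPM in wild-type libraries, 205, 133 and 152 in heterozygous ones and 0.142, 0.2098 and 0.115 in homozygous ones. The plus-strand precursor 18_qE1_1295_2 stood at 39.8 CPM in wild type and 0.0471 in homozygotes. CPM are counts scaled to library size, and values after ± are SDs over 3 libraries. No 2 libraries of a group agreed within sampling noise (chi-square per degree of freedom over features 3.12 or more). Wild-type library 1 stood apart from libraries 2 and 3 (47.6 and 50.7), which were closest of all pairs, and heterozygous library 1 from the other two (39.2 and 42.6). Homozygous pairs gave 12.1 to 15.02. On the first principal component (43.6% of the variance) the wild-type libraries lay at -57.2, -41.2 and -40.4. The heterozygous and homozygous libraries intermixed between 13.8 and 31.3.

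Of 20782 features tested, 2012 were higher in homozygotes (9.68%) and 2307 lower (11.1%) at an adjusted p under 0.05 in the edgeR quasi-likelihood test, so 20.8% passed. The median log2 fold change over all features tested was -0.015. Most differences were small: 1131 of the higher and 678 of the lower features differed by less than 0.5 on the log2 scale. At least 2-fold differences numbered 220 higher (1.06%) and 525 lower (2.53%). Without scaling beyond library size, 2225 features were higher and 1688 lower. Libraries left out in turn are written as WT, Het or Homo with their number. Leaving out 1 library changed the number of calls: 1899 features passed without Homo 2 and 1805 without Homo 3. Without WT 1, 2 or 3, 2915, 2760 and 2814 passed. Heterozygotes, compared with the same wild-type libraries, had 2302 features higher and 2675 lower (23.9% called), and between homozygotes and heterozygotes 6 features passed (0.0289%). Heterozygous levels are therefore given beside the others for leading genes. Fewer cells of a type and less RNA per cell cannot be told apart in these bulk samples.

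Base composition moved with genotype. Among protein-coding genes, 532 of 1583 in the decile with the lowest transcript GC content (median 39.2%) were higher and 32 lower. In the decile with the highest GC content (median 59.7%), 7 were higher and 544 lower, and the median log2 fold change ran from 0.30 to -0.40 between these deciles. The trend also differed between libraries of the same genotype. Relative to the mean of the 9 libraries, the highest decile minus the lowest was 0.62, 0.33 and 0.34 (log2) in wild-type libraries, -0.083, -0.018 and -0.56 in heterozygous ones and -0.028, -0.25 and -0.35 in homozygous ones. All wild-type libraries lay above the mean, whereas the other 6 spanned a range from near it to well below it. Gene length showed a weaker trend, with a median of -0.22 in the decile of shortest genes and 0.098 in the longest. When each library's GC trend was removed before the fit, 1295 features were higher and 1294 lower. The GC trend moves with genotype, and their parts in a result cannot be told apart, so each gene list is given as fitted and with the trend removed. Of 1702 names in the lists, 111 are in more than 1 list, so the counts of lists are not independent of each other. A call is named as lost where its adjusted p reached 0.05 with the trend removed or with 1 library left out, and the leading count of a list is repeated for each left-out library that moved it by over 1.5 times (counts under 3 are not repeated for this). Where an alternative fit moved the median of a list by over 1.5 times or turned its sign, its lowest and highest value over the alternatives follow.

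**Figure D1:**
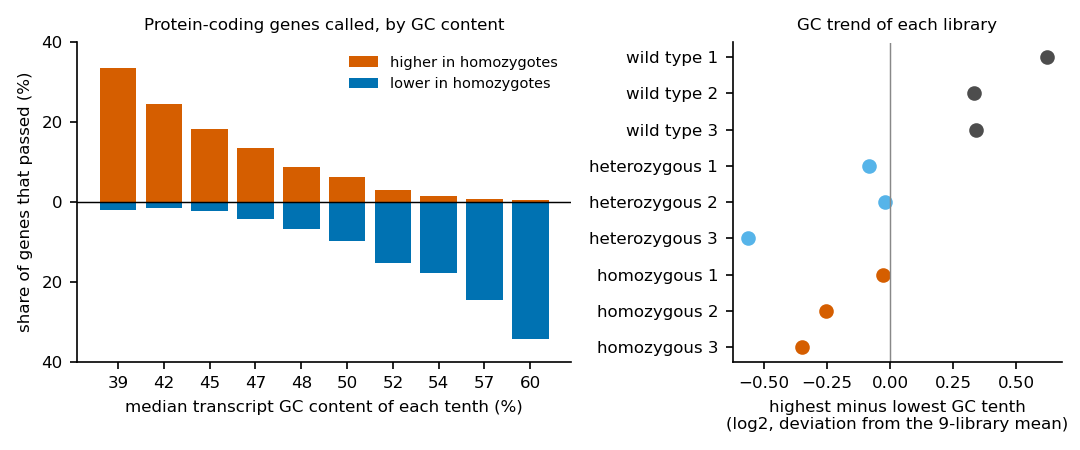
Left, share (%) of protein-coding genes called higher (upward bars) or lower (downward bars) in homozygotes for each decile of transcript GC content. Right, GC trend of each library as the log2 deviation of the highest minus the lowest decile. Calls pass from mostly higher to mostly lower with rising GC content, and the 3 wild-type libraries lie at 0.33 to 0.62.

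Leydig cell genes were lower in homozygotes, and their decrease was as large with the GC trend removed. Of 15 Leydig cell genes tested, 11 fell, with a median log2 fold change of -1.04 (-1.06 with the GC trend removed, 11 lower) against -0.015 over all features. In heterozygotes, set against the same wild-type libraries, the median was -0.91. Their summed level was 1823 to 1917 CPM in wild-type libraries, 1126 to 1290.5 in heterozygous ones and 1045 to 1326 in homozygous ones, with all wild-type sums above all others. Insl3, the insulin-like hormone of mature Leydig cells, was not tested and is listed at 0 in all 9 libraries. Cox4i1 and Map1lc3b, which most cells use, are listed at 0 as well, and all 3 genes overlap other features of the same strand over their whole length, so these zeros give no level.

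The steps from cholesterol to testosterone can be followed gene by gene. Star, which carries cholesterol into mitochondria (chr8:25806555-25815982, plus strand), stood at 121, 153 and 123 CPM in wild-type libraries, 23.95, 55.6 and 55.9 in heterozygous ones and 64.98, 67.7 and 32.99 in homozygous ones. It fell (log2 fold change -1.26, SE 0.30, adjusted p = 0.0146), with every wild-type library above every other one. Cyp11a1, the side-chain cleavage enzyme that makes pregnenolone (chr9:58006411-58027023, plus strand), stood at 256, 269 and 249 CPM in wild-type libraries, 135, 169 and 106 in heterozygous ones and 128, 141 and 107 in homozygous ones (log2 fold change -1.04, SE 0.15, adjusted p = 0.0014997). Hsd3b1, the 3-beta-hydroxysteroid dehydrogenase of Leydig cells, stood at 144, 168 and 172 CPM in wild-type libraries, 109, 88.99 and 82.6 in heterozygous ones and 73.5, 86.4 and 82.5 in homozygous ones (log2 fold change -0.998, SE 0.12, adjusted p = 4.73e-04). In both genes the wild-type libraries formed a separate upper group. Cyp17a1, which makes androgens from progestins (chr19:46667165-46672974, minus strand), stood at 479, 517 and 442 CPM in wild-type libraries, 161, 257 and 185 in heterozygous ones and 226, 248 and 174 in homozygous ones (log2 fold change -1.15, SE 0.17, adjusted p = 0.00151). Hsd17b3, which completes testosterone synthesis (chr13:64058274-64089201, minus strand), showed the largest decrease among these enzymes and stood at 28.4, 22.98 and 25.1 CPM in wild-type libraries, 9.31, 10.7 and 11.3 in heterozygous ones and 7.897, 7.83 and 7.78 in homozygous ones (log2 fold change -1.70, SE 0.12, adjusted p = 6.25e-06). With the GC trend removed, the log2 fold changes of Star, Cyp11a1, Hsd3b1, Cyp17a1 and Hsd17b3 were -1.33, -0.996, -1.06, -1.11 and -1.72, and all 5 calls held with the trend removed and without any single library.

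The decrease did not extend to all Leydig cell genes. Lhcgr, the luteinizing hormone receptor, stood at 31.1, 24.6 and 20.7 CPM in wild-type libraries, 24.4, 23.3 and 19.04 in heterozygous ones and 17.9, 23.8 and 18.4 in homozygous ones and did not pass (log2 fold change -0.35, adjusted p = 0.1397). Hsd3b6, the adult Leydig isozyme, did not pass either (58.7 ± 4.99 CPM in wild type and 64.6 ± 14.5 in homozygotes, SD, n = 3 each; log2 fold change 0.14). Prlr, the prolactin receptor, and Aldh1a1, a retinaldehyde dehydrogenase, were also not called (0.0072 and 0.32). The glutathione transferase Gstm2 was called (-0.63), but not without Homo 3 (adjusted p = 0.0608). The transcription factor Nr5a1, which drives steroidogenic genes, fell from 49.4 ± 3.42 to 29.2 ± 5.798 CPM (log2 fold change -0.76, SE 0.16, adjusted p = 0.00818; -0.39 with the GC trend removed). The fatty acid carrier Fabp3 stood at 146, 132 and 126 CPM in wild-type libraries, 54.3, 51.7 and 33.8 in heterozygous ones and 44.3, 33.04 and 35.5 in homozygous ones (log2 fold change -1.84, SE 0.17, adjusted p = 5.47e-05). Sult1e1, the estrogen sulfotransferase, fell from 8.22 to 1.103 CPM (log2 fold change -2.89) and the alcohol dehydrogenase Adh1 from 14.5 to 6.12 CPM (-1.24).

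**Figure D2:**
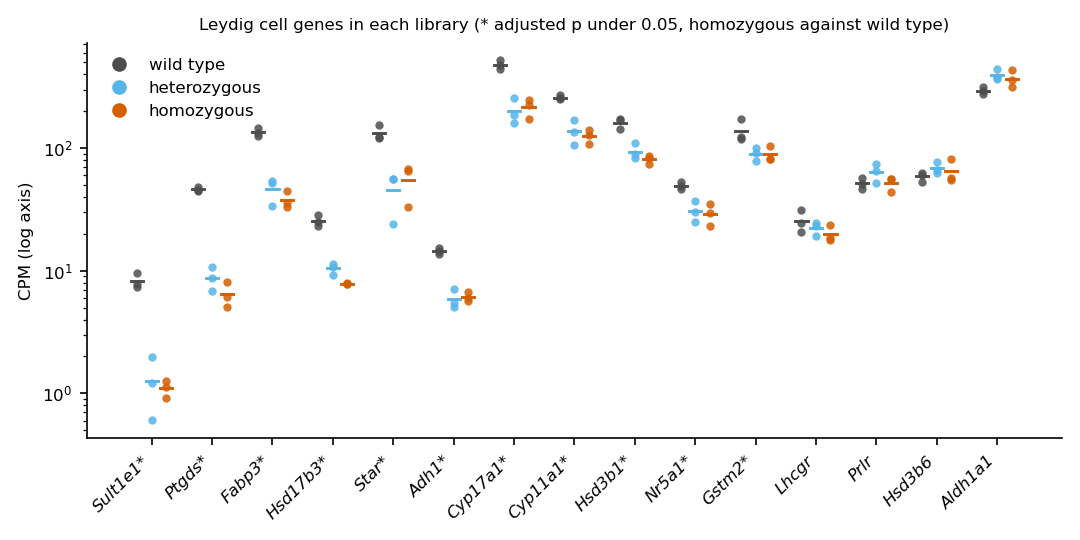
Level of each Leydig cell gene in CPM (log axis) in the 3 wild-type, 3 heterozygous and 3 homozygous libraries, with bars at the group means and genes ordered by log2 fold change. From Sult1e1 to Gstm2, 11 genes passed and are marked with an asterisk, and the last 4 genes, Lhcgr to Aldh1a1, did not.

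Genes of immature Leydig cells split in direction. Srd5a1 and Akr1c14, which turn testosterone into 5-alpha-reduced androgens in immature Leydig cells, rose. Srd5a1 stood at 7.52, 6.39 and 6.32 CPM in wild-type libraries, 13.6, 11.5 and 11.2 in heterozygous ones and 10.1, 14.2 and 12.8 in homozygous ones (log2 fold change 0.87, SE 0.15, adjusted p = 0.00379). Akr1c14 stood at 3.88, 4.29 and 4.55 CPM in wild-type libraries, 6.38, 8.52 and 7.98 in heterozygous ones and 6.27, 10.7 and 8.08 in homozygous ones (log2 fold change 0.98, SE 0.19, adjusted p = 0.00662). For both, all homozygous libraries exceeded all wild-type ones. Vcam1, an adhesion molecule, fell from 157 ± 23.3 to 76.3 ± 8.58 CPM (log2 fold change -1.04, SE 0.18, adjusted p = 0.00388), and Crhr1, the corticotropin-releasing hormone receptor, from 1.65 to 0.629 CPM (-1.40). Of 9 genes in the list of fetal and immature Leydig cells, 3 rose and 2 fell (median 0.25; with the GC trend removed, 3 higher, 2 lower, median 0.22; alternatives from 0.087 without WT 2 to 0.30 without scaling). Thbs2, the other gene that rose, lost its call in several fits (adjusted p = 0.0715 without WT 2, 0.0583 without WT 3, 0.07202 without Homo 2, 0.07603 without Homo 3). Over the whole testosterone pathway, 7 of 19 genes were lower and 3 higher (median -0.33; with the GC trend removed, 3 higher, 6 lower, median -0.19).

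Cholesterol supply changed less. Of 25 genes of cholesterol synthesis and uptake, 5 fell and 2 rose, with a median of -0.053 (3 lower, 0 higher and -0.065 with the GC trend removed). Fdps, which makes farnesyl diphosphate, fell from 7.501 ± 1.33 to 3.67 ± 0.643 CPM (log2 fold change -1.04, SE 0.18, adjusted p = 0.00328). The lower count became 3 without WT 2 or Homo 2 or 3. The detoxifying epoxide hydrolase Ephx1 stood at 166, 122 and 122 CPM in wild-type libraries, 62.4, 60.5 and 49.3 in heterozygous ones and 50.6, 53.5 and 36.9 in homozygous ones (log2 fold change -1.54, SE 0.16, adjusted p = 1.63e-04). It belongs to a list of 42 glutathione, thioredoxin and antioxidant enzymes of which 12 fell and 3 rose (median -0.18; with the GC trend removed, 2 higher, 8 lower, median -0.10) with 6 without Homo 3 for the number lower. The glutathione transferases Gsta3 (-0.91) and Gstm1 (-0.87) fell, and glutathione reductase Gsr rose (0.49). Gstm genes are close copies of each other, and fragments from them could be misplaced or left uncounted.

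Tissue kallikreins, secreted serine proteases of which several are made by Leydig cells, showed the lowest median of the lists with at least 5 members tested. Of 11 tested, 8 fell (median -1.73; with the GC trend removed, 0 higher, 8 lower, median -1.66), and in all 11 the wild-type and homozygous libraries did not overlap, against 42.6% of all features. In heterozygotes the median was -1.65. Their summed level was 72.7 to 79.96 CPM in wild-type libraries, 11.4 to 20.6 in heterozygous ones and 10.9 to 17.6 in homozygous ones. Klk1b8 (chr7:43950664-43954941, plus strand) stood at 19.4, 28.5 and 30.3 CPM in wild-type libraries, 0.366, 0.668 and 0.584 in heterozygous ones and 0.496, 0.4196 and 0.5005 in homozygous ones (log2 fold change -5.78, SE 0.25, adjusted p = 7.30e-08). Klk1b26 stood at 7.86, 7.203 and 6.32 CPM in wild-type libraries, 0.275, 0.468 and 0.413 in heterozygous ones and 0.212, 0.4196 and 0.231 in homozygous ones (log2 fold change -4.61, SE 0.27, adjusted p = 1.59e-06). Klk1b9 stood at 4.13, 8.61 and 7.46 CPM in wild-type libraries, 0.4805, 0.468 and 0.584 in heterozygous ones and 0.319, 0.664 and 0.269 in homozygous ones (log2 fold change -3.98, SE 0.36, adjusted p = 4.79e-05). These 3 genes showed the largest decreases of the list, while Klk1b21 (9.5001 to 2.59 CPM), Klk1b27 (7.62 to 2.2998 CPM) and Klk1b24 (10.6 to 3.29 CPM) fell less. Klk1b3, Klk1b4 and Klk1b5 did not pass, at log2 fold changes of -1.09, -0.66 and -0.92. The Klk1b genes are related neighbours on chromosome 7, and fragments that match several of them could be misplaced or left uncounted, so their single levels are uncertain.

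The close relation of these genes shows in their promoters. Klk1b8 and Klk1b27, which fell by different amounts, are printed below from 250 bases before to 50 bases after the RefSeq start (build GRCm38.p6). Aligned over 269 bases, they were identical at 224 (83.3%). Capitals mark bases without an identical partner in the alignment, unaligned ends included.
Klk1b8, chr7:43950416-43950715, plus strand: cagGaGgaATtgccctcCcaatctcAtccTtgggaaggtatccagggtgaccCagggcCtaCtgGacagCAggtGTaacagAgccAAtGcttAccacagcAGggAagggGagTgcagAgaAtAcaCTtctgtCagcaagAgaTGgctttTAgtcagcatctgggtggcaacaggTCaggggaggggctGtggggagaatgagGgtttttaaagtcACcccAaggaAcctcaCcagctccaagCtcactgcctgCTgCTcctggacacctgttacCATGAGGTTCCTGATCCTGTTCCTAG
Klk1b27, chr7:44052040-44052339, plus strand: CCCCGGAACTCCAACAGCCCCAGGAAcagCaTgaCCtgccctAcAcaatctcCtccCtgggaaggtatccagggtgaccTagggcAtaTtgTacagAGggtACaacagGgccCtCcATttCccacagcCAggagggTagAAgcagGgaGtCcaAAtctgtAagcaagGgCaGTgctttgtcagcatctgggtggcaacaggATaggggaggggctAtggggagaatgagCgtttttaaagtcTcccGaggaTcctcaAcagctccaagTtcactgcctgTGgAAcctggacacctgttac

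Other genes with the strongest decreases had varied roles. Lcn2, a lipocalin that binds iron-carrying siderophores (chr2:32384633-32388252, minus strand), stood at 228, 165 and 159.9 CPM in wild-type libraries, 19.3, 20.3 and 15.4 in heterozygous ones and 15.9, 12.2 and 12.6 in homozygous ones (log2 fold change -3.76, SE 0.17, adjusted p = 1.18e-07). Ptgds, a lipocalin-type prostaglandin D synthase, stood at 48.3, 44.4 and 45.5 CPM in wild-type libraries, 6.77, 10.6 and 8.801 in heterozygous ones and 5.0995, 8.04 and 6.16 in homozygous ones (log2 fold change -2.84, SE 0.18, adjusted p = 2.75e-06). Dnah11, an axonemal dynein heavy chain, stood at 12.3, 11.3 and 13.2 CPM in wild-type libraries, 2.01, 1.805 and 1.65 in heterozygous ones and 1.35, 1.68 and 0.962 in homozygous ones (log2 fold change -3.20, SE 0.19, adjusted p = 1.59e-06). In all 3 genes the heterozygous libraries lay near the homozygous ones, far below wild type. Agt, angiotensinogen, fell from 137 ± 23.2 to 36.1 ± 2.73 CPM (log2 fold change -1.92, SE 0.16, adjusted p = 3.39e-05). Sardh, the sarcosine dehydrogenase of mitochondria, fell from 16.1 to 3.63 CPM (-2.15), the noncanonical poly(A) polymerase Tent5b from 34.02 to 8.89 CPM (-1.94), and the UBX domain protein Ubxn10 from 189 to 74.9 CPM (-1.33). Dnttip1, a subunit of a histone deacetylase complex (-1.49), the transposase-derived Pgbd5 (-1.18), Fam83e (-1.89) and AI987944 (-2.25) completed the 15 named protein-coding genes that fell at least 2-fold with the lowest adjusted p, out of 101 that met the rule. Of these 15, Klk1b8, Hsd17b3, Fabp3 and Tubb6 are described with their lists. Ptgds is also 1 of the 11 Leydig cell genes that fell. All 15 calls held with the GC trend removed and without any single library.

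Fewer protein-coding genes, 21, met the same rule in the upward direction, and 15 are named. Gm9 and Tmem184c rose most. Gm9 stood at 4.902, 4.84 and 5.32 CPM in wild-type libraries, 8.24, 10.1 and 9.73 in heterozygous ones and 40.9, 41.6 and 42.8 in homozygous ones (log2 fold change 3.06, SE 0.11, adjusted p = 1.25e-08). Tmem184c, a multi-pass membrane protein, stood at 44.7, 52.2 and 54.7 CPM in wild-type libraries, 76.2, 74.9 and 91.99 in heterozygous ones and 221, 220.2 and 251 in homozygous ones (log2 fold change 2.19, SE 0.11, adjusted p = 5.37e-07). In both, and in the MAP7-family gene Map7d3 (means of 13.4, 17.8 and 35.2 CPM in wild-type libraries, heterozygotes and homozygotes), the homozygous libraries stood above the heterozygous ones. Rassf9 showed the same order (10.9, 16.5 and 27.5 CPM). Most others had heterozygous levels near the homozygous ones. The potassium channel subunit Kcnd2 stood at 38.6, 135 and 119.7 CPM in the same order of groups, the potassium channel beta subunit Kcnab1 at 11.4, 21.2 and 26.6 CPM, and the centrosomal gene Sfi1 at 9.59, 34.02 and 28.3 CPM. Genes of the cell surface and matrix were among them: the matrix protease Adamts9 (10.2, 26.3 and 26.96 CPM), the heparan sulfate sulfotransferase Hs6st2 (10.3, 22.4 and 21.2 CPM), the integrin subunit Itgb8 (5.05, 10.7 and 10.1 CPM) and the secreted serine protease homolog Prss35 (43.97, 85.4 and 92.7 CPM). The kinase Nrk (1.07), the vomeronasal receptor Vmn1r181 (1.09), Scoc (1.13) and Tmem267 (1.14) complete the group. All 15 calls held with the GC trend removed and without any single library.

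Sertoli cell genes were called about as often as all features (21.4% against 20.8%), and those called as fitted were higher. Of 28 tested, 14 lay above 0 and 14 below, and 6 were called higher (median 0.057, and -0.0041 in heterozygotes). With the GC trend removed, 9 rose and 1 fell (median 0.20). The median was negative in 3 alternatives, at -0.052 without WT 3, -0.021 without Homo 1 and -0.039 without a filter. With fewer libraries, the higher count was 3 without Homo 2 or 3. Shbg, the androgen-binding protein, stood at 13.996, 16.1 and 16.1 CPM in wild-type libraries, 19.4, 35.3 and 23.7 in heterozygous ones and 42.5, 41.3 and 24.9 in homozygous ones (log2 fold change 1.24, SE 0.23, adjusted p = 0.00483). Kitl, the ligand that Sertoli cells present to the Kit receptor of germ cells, stood at 44.6, 41.6 and 46.1 CPM in wild-type libraries, 65.3, 61.3 and 70.9 in heterozygous ones and 57.4, 71.7 and 71.9 in homozygous ones (log2 fold change 0.60, SE 0.10, adjusted p = 0.00385). The secreted cystatin Cst12 rose from 50.3 ± 16.9 to 98.3 ± 8.59 CPM (log2 fold change 0.97, SE 0.20, adjusted p = 0.00718), and its relative Cst9 from 51.3 to 131 CPM (1.35; adjusted p = 0.0608 without WT 1, 0.0659 without Homo 2, 0.0691 without Homo 3). In Kitl and Cst12 all 3 homozygous libraries were above all wild-type ones. Sox9, the master regulator of Sertoli fate, did not pass (6.87 and 6.14 CPM; log2 fold change -0.16, adjusted p = 0.489). Amh, the anti-Müllerian hormone of immature Sertoli cells, was not called as fitted (0.69, adjusted p = 0.186) and was called with the GC trend removed (1.29, adjusted p = 0.0137). The summed level of the list was 1946 to 1997 CPM in wild type and 1949 to 2272 in homozygotes, and these ranges overlap.

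Junction genes of the seminiferous epithelium were called about as often as all features (19.2% against 20.8%). Cldn3, a claudin of the blood-testis barrier, stood at 8.23, 4.51 and 5.05 CPM in wild-type libraries, 1.899, 1.303 and 1.17 in heterozygous ones and 1.74, 1.96 and 0.808 in homozygous ones (log2 fold change -1.98, SE 0.32, adjusted p = 0.00268), with no overlap between wild type and the other groups. Espn, an actin bundler of ectoplasmic specializations, fell from 61.3 ± 10.1 to 36.8 ± 2.78 CPM (log2 fold change -0.74, SE 0.13, adjusted p = 0.00424), a call lost with the GC trend removed (-0.24, adjusted p = 0.228). Of 26 junction genes 3 rose and 2 fell (median 0.19; with the GC trend removed, 5 higher, 1 lower, median 0.16; alternatives from 0.058 with the length trend removed to 0.24 without scaling). In left-out fits the number higher was 0 without Homo 2 and 1 without WT 2 or 3 or Homo 3. Among 39 extracellular matrix genes, 7 rose and 3 fell (median 0.034), and 14 rose and 1 fell with the GC trend removed (median 0.27; alternatives from -0.075 with the length trend removed to 0.27 with the GC trend removed). The number higher was 2 without WT 2 or Homo 3 and 3 without Homo 2, and the number lower was 5 without Het 1 or 3. As fitted, 25.6% of the matrix genes were called, against 20.8% of all features. The laminin chain Lama1 rose from 38.5 ± 1.26 to 51.6 ± 2.94 CPM (log2 fold change 0.42, SE 0.080, adjusted p = 0.005496), and the small proteoglycan Bgn fell from 36.4 ± 0.531 to 24.2 ± 3.18 CPM (log2 fold change -0.59, SE 0.11, adjusted p = 0.00463).

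Lists of peritubular myoid cells, interstitial fibroblasts and endothelium had medians nearer 0 than the Leydig cell list. Summed levels of the peritubular list were 613 to 632 CPM in wild type, 555 to 578 in heterozygotes and 500 to 563 in homozygotes. All wild-type sums of that list lay above all others. Sums of the fibroblast list, 882 to 950 CPM in wild type and 904 to 1107 in homozygotes, overlapped. Contractile genes of peritubular myoid cells had a median of -0.14 (0.023 with the GC trend removed), with 3 of 14 lower (1 with the GC trend removed; 0 without Homo 3 and 1 without WT 1 or Homo 1), and medians in the alternatives from -0.18 without WT 2 to 0.023 with the GC trend removed. Des, the muscle intermediate filament, fell from 8.53 ± 0.389 to 5.29 ± 0.2499 CPM (log2 fold change -0.69, adjusted p = 0.0109; 0.0507 without Homo 3). Among 16 genes of interstitial fibroblasts, 2 rose and 1 fell (median 0.19; with the GC trend removed, 2 higher, 0 lower, median 0.18). The higher count became 0 without WT 2 or Homo 2 or 3, 1 without WT 1 and 4 without Homo 1. Col3a1, a fibrillar collagen, rose from 224 to 324 CPM (log2 fold change 0.53; adjusted p = 0.0674 without WT 2, 0.0774 without Homo 2, 0.0745 without Homo 3). Of 15 endothelial genes, 0 passed in the edgeR quasi-likelihood test, 1 had an unadjusted p under 0.05 and 1 passed in DESeq2 (median 0.020; with the GC trend removed, 1 higher, 0 lower, median 0.18; alternatives from -0.081 without Homo 3 to 0.18 with the GC trend removed). Their summed level was 62.1 to 68.4 CPM in wild type and 60.5 to 65.1 in homozygotes.

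Macrophage genes had a median of -0.034 (0.015 with the GC trend removed; alternatives from -0.074 without Homo 2 to 0.030 without WT 1), with 2 higher and 3 lower of 20. The complement subunit C1qb fell from 10.4 ± 1.903 to 6.01 ± 0.3201 CPM (log2 fold change -0.80, SE 0.15, adjusted p = 0.00581), and the lysozyme Lyz2 rose from 16.3 ± 0.9205 to 22.05 ± 1.798 CPM (log2 fold change 0.44; adjusted p = 0.0741 without WT 1, 0.0555 without WT 2, 0.0921 without WT 3, 0.117 without Homo 2, 0.0684 without Homo 3). With fewer libraries, the lower count was 1 without WT 3 or Homo 1 or 3. Summed levels of the macrophage list were 402 to 431 CPM in wild type, 347 to 404 in heterozygotes and 334 to 380 in homozygotes. Wild-type and homozygous sums did not overlap. Of 12 lymphocyte markers 5 could be tested, and 0 passed in the edgeR test, with 1 at an unadjusted p under 0.05 and 0 in DESeq2. The red cell gene Alas2 was the 1 called among 6 blood genes (19.6 to 10.1 CPM; adjusted p = 0.0881 without WT 1, 0.0737 without WT 2, 0.0951 without WT 3, 0.114 without Homo 1, 0.0861 without Homo 2, 0.0508 without Homo 3). Adipose markers summed to 22.3 to 23.7 CPM in wild type and 14.9 to 18.2 in homozygotes, and 3 of 7 were lower (median -1.44; with the GC trend removed, 1 higher, 2 lower, median -1.16; alternatives from -1.46 without Homo 2 to -0.40 at a mean of 1 CPM or more; 1 without Homo 1 or 3), led by the adipocyte protease Cfd (1.34 to 0.17998 CPM, log2 fold change -2.89). Epididymis markers were tested for 3 of 8 genes, and 0 passed in edgeR, 0 at an unadjusted p under 0.05 and 0 in DESeq2 (median -2.96, -3.11 with the GC trend removed). Their sums spanned 4.003 to 38.05 CPM in wild-type libraries, 3.84 to 17.3 in heterozygous ones and 4.23 to 8.25 in homozygous ones, so single libraries set that median, which left-out libraries moved between -5.80 and 0.14. The part of attached tissue in other results was not tested.

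Immune lists differed in the sign of their medians. Genes of antigen presentation were lower where they changed, 5 of 17, with a median of -0.43 (4 lower and -0.19 with the GC trend removed; 3 without Homo 3). H2-Aa, a class II chain of antigen-presenting cells, stood at 1.97, 2.29 and 2.41 CPM in wild-type libraries, 0.206, 0.267 and 0.206 in heterozygous ones and 0.4604, 0.594 and 0.231 in homozygous ones (log2 fold change -2.35, SE 0.30, adjusted p = 7.06e-04). Cd74, the class II invariant chain, stood at 5.83, 5.43 and 6.14 CPM in wild-type libraries, 2.6997, 4.11 and 1.75 in heterozygous ones and 2.302, 1.36 and 1.12 in homozygous ones (log2 fold change -1.85, SE 0.31, adjusted p = 0.002803). Nlrc5, a transactivator of class I genes, fell from 6.95 ± 2.18 to 2.55 ± 0.597 CPM (log2 fold change -1.44, SE 0.26, adjusted p = 0.00459). Complement and acute phase genes fell in 7 of 19 (median -0.36; with the GC trend removed, 0 higher, 6 lower, median -0.23). After Lcn2 the lowest p-values belonged to the terminal complement protein C7, which fell from 42.5 ± 2.64 to 25.4 ± 2.09 CPM (log2 fold change -0.74, SE 0.10, adjusted p = 0.00102), and to C4b, which fell from 10.8 ± 1.44 to 4.29 ± 0.624 CPM (log2 fold change -1.34, SE 0.18, adjusted p = 0.00103). Interferon-stimulated and RNA-sensing genes had the opposite median, 0.36 (0.34 with the GC trend removed), with 5 of 32 higher and 1 lower, a called share of 18.8% against 20.8% of all features. Ifih1, a sensor of double-stranded RNA, rose from 4.19 ± 0.294 to 6.78 ± 1.304 CPM (log2 fold change 0.70, adjusted p = 0.01097; 0.0518 without Homo 2). Dhx58, the related sensor LGP2, fell from 45.9 ± 9.38 to 28.02 ± 3.68 CPM (log2 fold change -0.71, SE 0.14, adjusted p = 0.00627). The number of interferon genes higher was 0 without Homo 2, 1 without WT 2, 2 without WT 3 and 3 without WT 1 or Homo 1 or 3.

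Germ cell lists ran from higher in early meiosis to lower in late spermatids. Undifferentiated spermatogonial genes had a median of -0.036 (1 higher and 1 lower of 13; 0.019 with the GC trend removed, 0 higher and 0 lower; alternatives from -0.15 without a filter to 0.10 at a mean of 1 CPM or more). Differentiating spermatogonial genes had a median of 0.13 (0.31 with the GC trend removed; alternatives from 0.048 without Homo 2 to 0.31 with the GC trend removed), with 3 higher and 2 lower of 11. Kit, the receptor of differentiating spermatogonia and Leydig cells, stood at 55.6, 42.8 and 40.6 CPM in wild-type libraries, 35.6, 28.97 and 30.6 in heterozygous ones and 27.4, 31.2 and 27.6 in homozygous ones (log2 fold change -0.69, SE 0.13, adjusted p = 0.00499). Stra8, which acts at meiotic entry, stood at 5.36, 5.17 and 5.69 CPM in wild-type libraries, 7.64, 6.95 and 6.74 in heterozygous ones and 7.65, 8.496 and 7.85 in homozygous ones (log2 fold change 0.57, SE 0.12, adjusted p = 0.00908). Dazl, a germ cell RNA-binding protein, rose from 232 ± 16.99 to 347 ± 35.7 CPM (log2 fold change 0.58, SE 0.10, adjusted p = 0.00443; 0.30 with the GC trend removed). Kit fell while its ligand rose, and in each gene the wild-type and homozygous libraries did not overlap.

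In the list of the synaptonemal complex, which holds paired chromosomes together, and the chromosome axis, 11 of 19 genes tested rose. The median was 0.50, and in heterozygotes it was 0.42. The list also holds genes outside these structures, among them Meioc, Ythdc2 and the telomere attachment genes Majin, Terb1 and Terb2. With the GC trend removed, 5 rose and the median was 0.19. This list had a median GC content of 39.8%, against 49.5% for all protein-coding genes tested. Sycp3, the axis protein, stood at 109.5, 124 and 149 CPM in wild-type libraries, 202, 190.2 and 226 in heterozygous ones and 192, 248 and 233 in homozygous ones (log2 fold change 0.81, SE 0.13, adjusted p = 0.00242; 0.50, adjusted p = 0.0073997, with the GC trend removed). Terb2, a telomere attachment protein, rose from 8.33 ± 0.705 to 13.1 ± 0.6903 CPM (log2 fold change 0.66, SE 0.12, adjusted p = 0.00398). Meioc, which prolongs meiotic prophase, rose from 276 ± 13.4 to 408 ± 18.1 CPM (log2 fold change 0.56, SE 0.098, adjusted p = 0.00385), a call lost with the GC trend removed (0.30, adjusted p = 0.0553). Recombination genes rose in 11 of 27 (median 0.28; with the GC trend removed, 6 higher, 1 lower, median 0.19). In left-out fits the number higher was 5 without Homo 2 and 6 without WT 3 or Homo 3. Meiob, which binds single-stranded DNA at crossover sites, rose from 36.5 ± 1.88 to 61.8 ± 8.69 CPM (log2 fold change 0.76, SE 0.11, adjusted p = 0.00129). Tex11 on the X chromosome, needed for crossovers, rose from 29.4 ± 1.24 to 43.98 ± 2.97 CPM (log2 fold change 0.58, SE 0.11, adjusted p = 0.00512). Dmc1, the meiotic recombinase, went from 17.3 to 21.5 CPM (log2 fold change 0.32, adjusted p = 0.04904). That call was lost with the GC trend removed (0.13) and in several other fits (adjusted p = 0.131 without WT 1, 0.0713 without WT 2, 0.0869 without WT 3, 0.166 without Homo 2, 0.128 without Homo 3).

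Later meiotic lists were mixed. Pachytene spermatocyte genes had a median of -0.018 (-0.053 with the GC trend removed), with 3 higher and 2 lower of 21 (1 higher and 0 lower with the GC trend removed). The number higher was 1 without WT 2 or 3 or Homo 2. The RNA export factor Nxf2 rose from 20.97 ± 1.04 to 30.6 ± 0.976 CPM (log2 fold change 0.54, SE 0.088, adjusted p = 0.00252). Ybx2, a germ cell Y-box protein, fell from 866 ± 98.6 to 552 ± 64.5 CPM (log2 fold change -0.65, SE 0.13, adjusted p = 0.00632), and did not pass with the GC trend removed (-0.12). Piwil1, the PIWI protein of pachytene piRNAs, did not pass (-0.14, adjusted p = 0.334). Cell division genes had a median of 0.0057 (-0.0082 with the trend removed; alternatives from -0.058 without WT 2 to 0.087 without WT 1), with 6 higher and 3 lower of 29 (4 higher and 1 lower with the GC trend removed). The proliferation antigen Mki67 rose from 66.5 ± 1.99 to 109.7 ± 12.8 CPM (log2 fold change 0.72, SE 0.099, adjusted p = 0.00111), and the meiotic cyclin Ccnb3 from 13.4 ± 0.737 to 23.04 ± 1.65 CPM (log2 fold change 0.78, SE 0.11, adjusted p = 0.00131). The polo kinase Plk1 fell from 48.3 ± 13.5 to 29.3 ± 4.41 CPM (log2 fold change -0.73, adjusted p = 0.0132; 0.0580002 without Homo 2, 0.0588 without Homo 3). The number of division genes lower was 0 without Homo 2 or 3.

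Elongating spermatid genes were lower in 10 of 22, with a median of -0.70 (5 lower and -0.51 with the GC trend removed; list GC content 53.9%). Their summed level was 20118 to 20754 CPM in wild-type libraries, 7597 to 16551 in heterozygous ones and 11587 to 15001 in homozygous ones. The heterozygous median was -0.79. Heterozygous library 1 had the lowest sum, and all 9 libraries share 1 estimate of the spread. The lower count became 5 without Homo 1 or 2, 6 without WT 1 or Homo 3 and 18 without Het 1. Tssk3, a spermatid kinase, stood at 134, 137 and 138 CPM in wild-type libraries, 57.8, 95.9 and 76.5 in heterozygous ones and 79.2, 70.8 and 81.8 in homozygous ones (log2 fold change -0.82, SE 0.15, adjusted p = 0.00432). Tssk6, a related kinase, stood at 244, 203 and 226 CPM in wild-type libraries, 51.4, 121 and 73.8 in heterozygous ones and 81.6, 82.8 and 95.8 in homozygous ones (log2 fold change -1.37, SE 0.23, adjusted p = 0.00323; -0.77, adjusted p = 0.0791, with the GC trend removed). Both kinases were higher in every wild-type library than in every homozygous one. Tnp1, the first transition protein that replaces histones, was not called (986, 1655 and 1845 CPM in wild-type libraries, 824, 1830.4 and 1702 in heterozygous ones and 1092, 1562 and 1678 in homozygous ones; log2 fold change -0.050, adjusted p = 0.9205). The protamines Prm1 (4395, 3382 and 3377 CPM in wild-type libraries, 944, 2801 and 2625 in heterozygous ones and 1824, 2455 and 2659 in homozygous ones; -0.68, adjusted p = 0.134) and Prm2 (2359, 2216 and 2328 CPM in wild-type libraries, 518, 1616 and 1410.0 in heterozygous ones and 943, 1244 and 1339 in homozygous ones; -0.97, adjusted p = 0.0415) package sperm DNA. Prm1 was not called. The call of Prm2 was lost with the GC trend removed (-0.67) and without each of the 6 libraries in turn (adjusted p = 0.0921 without WT 1, 0.0772 without WT 2, 0.0841 without WT 3, 0.117 without Homo 1, 0.101 without Homo 2, 0.0749 without Homo 3).

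Round spermatid genes had a median of -0.23, with 5 lower and 1 higher of 22, and -0.091 with 1 lower and 1 higher when the GC trend was removed (alternatives from -0.33 without WT 1 to -0.091 with the GC trend removed). With fewer libraries, the lower count was 0 without Homo 2, 1 without WT 2 or 3 or Homo 3 and 8 without WT 1. Acrv1, an acrosomal matrix protein of round spermatids, rose from 107 ± 28.9 to 172 ± 22.4 CPM (log2 fold change 0.69, adjusted p = 0.0173; 0.0738 without Homo 3). Crem, the transcription factor that switches on many spermatid genes, did not pass (229.8 ± 7.63 and 245 ± 16.9 CPM; log2 fold change 0.092, adjusted p = 0.512).

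**Figure D3:**
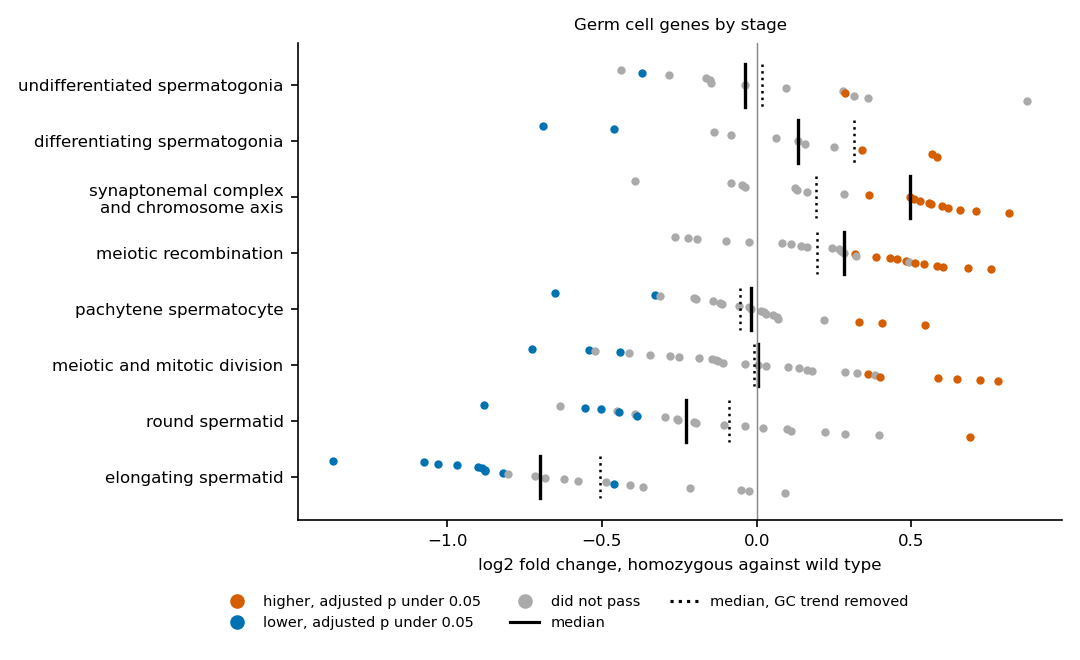
Log2 fold change of each germ cell gene tested, homozygous against wild type, by list from spermatogonia (top) to elongating spermatids (bottom). Points are genes, coloured where the adjusted p was under 0.05, solid lines are medians and dotted lines medians with the GC trend removed. The medians run from 0.50 in the synaptonemal complex list to -0.70 in elongating spermatids, and from 0.19 to -0.51 with the GC trend removed.

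Spermatid lists shared a promoter word. The 8-base word TGACATCA, a close variant of the cAMP response element that CREM binds, was searched on both strands from 250 bases before to 50 after the RefSeq start (GRCm38.p6), along with TGACGTCA, CAAGGTCA and CCAAT. It was found in 6 of 21 elongating spermatid genes with a promoter entry, 6 of 21 round spermatid genes and 6 of 18 fibrous sheath genes, against 4.18% of 27025 genes. The lists share members, and Akap4, Gapdhs and Smcp count among the matches of both the elongating and the sheath list. Among the 12503 coding genes tested that had a promoter entry, it was present in 3.44% of the 1484 coding genes that were lower, 1.99% of the 1357 higher and 3.38% of the 9662 not called. The canonical TGACGTCA was in 2.03% of all promoters, CAAGGTCA in 1.76% and CCAAT in 41.1%. Leydig cell, testosterone, kallikrein, replication-dependent histone, synaptonemal and recombination lists were searched as well. CCAAT ran from 5 of 21 round spermatid genes to 51 of 59 histone genes, with 10 of 14 kallikreins and 9 of 14 testosterone synthesis genes. A match describes the sequence and shows no binding. The motifs were chosen after the data were seen. The 3 promoters below are shown as a called gene and a pair of uncalled ones that carry the word, and differences between them were not tested. They are printed with the word in capitals (TGATGTCA where it lies on the opposite strand).
Gsg1, chr6:135254287-135254586, minus strand: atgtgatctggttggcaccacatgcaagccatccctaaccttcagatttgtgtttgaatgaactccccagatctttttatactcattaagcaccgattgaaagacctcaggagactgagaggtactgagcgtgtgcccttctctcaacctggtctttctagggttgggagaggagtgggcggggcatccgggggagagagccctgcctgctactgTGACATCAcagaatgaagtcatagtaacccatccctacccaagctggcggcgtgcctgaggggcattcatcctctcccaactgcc
Akap4, chrX:7067265-7067564, plus strand: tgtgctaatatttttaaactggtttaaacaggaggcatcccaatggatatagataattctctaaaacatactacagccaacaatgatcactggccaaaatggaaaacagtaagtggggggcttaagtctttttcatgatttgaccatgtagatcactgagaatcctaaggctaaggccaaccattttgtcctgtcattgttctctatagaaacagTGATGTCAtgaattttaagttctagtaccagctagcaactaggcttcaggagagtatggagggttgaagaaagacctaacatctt
Tnp1, chr1:73015850-73016149, minus strand: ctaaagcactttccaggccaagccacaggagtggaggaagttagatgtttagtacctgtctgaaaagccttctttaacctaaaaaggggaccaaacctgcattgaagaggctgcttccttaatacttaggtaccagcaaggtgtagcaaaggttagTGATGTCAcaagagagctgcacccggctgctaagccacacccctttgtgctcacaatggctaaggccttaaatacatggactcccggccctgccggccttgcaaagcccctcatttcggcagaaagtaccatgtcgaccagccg
In Gsg1 and Akap4 the word begins 35 bases before the start, and in Tnp1 94 bases before it. Gsg1, a testis membrane protein, fell from 1373 ± 49.03 to 748 ± 76.3 CPM (log2 fold change -0.88, SE 0.22, adjusted p = 0.0171), a call lost with the GC trend removed (-0.63) and in 2 left-out fits (adjusted p = 0.0519 without Homo 1, 0.0557 without Homo 2). Akap4, the main scaffold of the fibrous sheath, was not called (from 1567 ± 80.2 to 1214 ± 207 CPM; log2 fold change -0.37, SE 0.26, adjusted p = 0.332), and neither was Tnp1.

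The series title names overgrowth of the acrosome, a vesicle that spermatids build from the Golgi apparatus, so these genes were examined together. Acrosome formation genes had a median of -0.071 (-0.084 with the GC trend removed), with 7 lower and 1 higher of 26 (1 lower and 0 higher with the GC trend removed). In left-out fits the number lower was 1 without Homo 2 or 3 and 4 without WT 1, 2 or 3. Ggn, gametogenetin, fell from 88.3 ± 13.02 to 45.97 ± 11.3 CPM (log2 fold change -0.94, SE 0.20, adjusted p = 0.00886). Vps54, a subunit of the complex that returns vesicles to the Golgi, rose from 40.95 ± 1.64 to 54.8 ± 4.46 CPM (log2 fold change 0.42, adjusted p = 0.0109; 0.05096 without Homo 2, 0.0508 without Homo 3; 0.19 with the GC trend removed). Acrosomal enzymes and egg-binding proteins had a median of -0.098 (-0.14 with the GC trend removed), with 7 lower and 1 higher of 31 (1 lower and 1 higher with the trend removed). The number lower was 1 without Homo 2, 2 without Homo 3 and 4 without WT 2 or 3. The membrane serine protease Prss21 fell from 58.4 ± 2.39 to 39.8 ± 2.17 CPM (log2 fold change -0.55, SE 0.093, adjusted p = 0.00314).

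Golgi matrix and golgin genes were higher in 7 and lower in 1 of 27 (median 0.17; with the GC trend removed, 4 higher, 0 lower, median 0.11; alternatives from 0.097 with the length trend removed to 0.23 without scaling). The higher count became 1 without Homo 3, 2 without Homo 2 and 4 without WT 2. Golga2, which encodes the cis-Golgi matrix protein GM130 (chr2:32287384-32307921, plus strand), stood at 63.1, 51.2 and 55.4 CPM in wild-type libraries, 62.6, 58.9 and 51.7 in heterozygous ones and 93.8, 81.8 and 75.4 in homozygous ones (log2 fold change 0.56, SE 0.11, adjusted p = 0.00706; 0.80 with the GC trend removed). Its homozygous libraries stood above all 6 others. Genes of coated vesicles and transport between endoplasmic reticulum and Golgi were higher in 5 and lower in 4 of 56 (median -0.030; with the GC trend removed, 4 higher, 4 lower, median -0.0010; alternatives from -0.089 without WT 3 to 0.021 without scaling). With fewer libraries, the higher count was 1 without Homo 2, 2 without Homo 3 and 3 without WT 3, and the number lower 0 without Homo 3, 1 without WT 1 and 2 without WT 3 or Homo 1 or 2. Bet1, a SNARE of this step, rose from 23.2 ± 1.51 to 33.9 ± 1.01 CPM (log2 fold change 0.55, SE 0.11, adjusted p = 0.005697). Copz2, a COPI coat subunit, fell from 6.49 ± 0.541 to 3.65 ± 0.655 CPM (log2 fold change -0.83, adjusted p = 0.0127; 0.0579 without Homo 3).

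In flagellar lists more genes fell than rose, with small medians. Dynein arm genes, which power the axoneme, had 8 lower and 2 higher of 33 (median -0.18; with the GC trend removed, 0 higher, 3 lower, median -0.090). In left-out fits the number lower was 2 without Homo 3, 3 without Homo 2 and 4 without WT 1. Beside Dnah11, the dynein assembly factor Dnaaf3 fell from 13.3 ± 2.49 to 6.81 ± 1.03 CPM (log2 fold change -0.97, SE 0.17, adjusted p = 0.004104). Genes of radial spokes, nexin links and the central pair fell in 9 of 47 (median -0.12; with the GC trend removed, 1 higher, 3 lower, median -0.11; alternatives from -0.19 with the length trend removed to -0.068 without scaling). The number lower was 2 without Homo 2 and 3 without WT 1 or Homo 3. The radial spoke head gene Rsph9 fell from 80.6 ± 9.04 to 55.1 ± 5.05 CPM (log2 fold change -0.55, SE 0.11, adjusted p = 0.00699), and Rsph3b, another spoke gene, stood at 58.7, 45.9 and 41.98 CPM in wild-type libraries, 34.4, 33.2 and 39.9 in heterozygous ones and 32.2, 28.7 and 15.01 in homozygous ones (log2 fold change -0.95, SE 0.22, adjusted p = 0.0129), with the heterozygous mean between the others. Rsph3b has a near copy, Rsph3a, so its counts are uncertain.

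Fibrous sheath and outer dense fibre genes, which stiffen the sperm tail, fell in 7 of 23 (median -0.36; with the GC trend removed, 0 higher, 4 lower, median -0.32). The lower count became 3 without Homo 2 or 3, 4 without WT 1 or Homo 1 and 14 without Het 1. Oaz3, the testis antizyme of polyamine control, stood at 1539, 1317 and 1275 CPM in wild-type libraries, 335, 837 and 672 in heterozygous ones and 601, 709.5 and 713 in homozygous ones (log2 fold change -1.03, SE 0.24, adjusted p = 0.0137). Odf4, an outer dense fibre protein, fell from 163 ± 5.69 to 118 ± 6.997 CPM (log2 fold change -0.46, SE 0.088, adjusted p = 0.00581). Tcp11, a sperm tail protein, fell from 1536 ± 37.3 to 940.2 ± 9.86 CPM (log2 fold change -0.71, SE 0.14, adjusted p = 0.00746), a call lost with the GC trend removed (-0.30). Genes of the manchette, the microtubule skirt that shapes the sperm head, fell in 5 of 28 (median -0.13; with the GC trend removed, 0 higher, 3 lower, median -0.11; alternatives from -0.19 without WT 1 to -0.083 without Homo 2), and the number lower was 2 without Homo 2, 3 without WT 1 or Homo 3 and 8 without Het 1.

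Of 14 tubulin genes, 6 were lower (median -0.40; with the GC trend removed, 1 higher, 3 lower, median -0.20; alternatives from -0.48 without WT 3 to -0.20 with the GC trend removed), and the number lower was 3 without WT 1 or Homo 2 or 3. Tubb6 fell from 22.1 ± 0.225 to 8.28 ± 0.9998 CPM (log2 fold change -1.42, SE 0.12, adjusted p = 3.39e-05). Tuba3a and Tuba3b, near-identical copies, are uncertain. Testis-specific serine kinases and their partners fell in 6 and rose in 1 of 12 (median -0.47; with the GC trend removed, 0 higher, 4 lower, median -0.19). Tssk6, described with the elongating spermatid genes, is also in this list. Tsacc, a partner of these kinases, stood at 58.1, 61.7 and 56.3 CPM in wild-type libraries, 35.3, 38.3 and 32.9 in heterozygous ones and 32.7, 36.1 and 36.6 in homozygous ones (log2 fold change -0.74, SE 0.090, adjusted p = 5.38e-04), and its wild-type libraries lay above all others. Testis ADAM proteases, membrane proteins of sperm, rose in 4 and fell in 1 of 18 (median 0.15; with the GC trend removed, 1 higher, 2 lower, median -0.037; alternatives from -0.037 with the GC trend removed to 0.19 without WT 2). With fewer libraries, the higher count was 1 without Homo 2 or 3 and 2 without WT 1 or 2 or Homo 1. Adam21 fell from 38.6 ± 5.97 to 23.8 ± 2.29 CPM (log2 fold change -0.70, SE 0.12, adjusted p = 0.00369) and Adam18 rose from 132 ± 6.25 to 180.4 ± 13.6 CPM (log2 fold change 0.45, SE 0.094, adjusted p = 0.00836). Sperm ion channel and cAMP genes were called in 1 of 27, Catspere2 (log2 fold change 0.41), and that call was lost with the GC trend removed, where 2 other genes were lower (median -0.052; with the GC trend removed, 0 higher, 2 lower, median -0.086; alternatives from -0.14 with the length trend removed to 0.0041 without scaling). It was also lost in left-out fits (adjusted p = 0.0906 without WT 1, 0.07299 without WT 3, 0.08401 without Homo 1, 0.113 without Homo 2, 0.05298 without Homo 3).

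Chromatin proteins were lower where they changed. Transition proteins, protamines and testis histones fell in 6 of 17 (median -0.46; with the GC trend removed, 0 higher, 1 lower, median -0.24). In left-out fits the number lower was 1 without Homo 2 or 3, 2 without WT 1 and 3 without WT 3. Prm3 fell from 55.6 ± 2.99 to 30.1 ± 2.53 CPM (log2 fold change -0.89, SE 0.16, adjusted p = 0.00443; -0.52, adjusted p = 0.08498, with the GC trend removed). Hist1h1t, the linker histone of spermatocytes, fell from 406 ± 126 to 224 ± 40.9 CPM (log2 fold change -0.86, adjusted p = 0.0187; 0.0693 without WT 1, 0.0756 without Homo 2, 0.0786 without Homo 3). Replication-dependent histone genes, short genes without introns and with GC content of 59.4% at the median, fell in 21 of 57 (median -0.71; with the GC trend removed, 1 higher, 7 lower, median -0.46; alternatives from -0.89 without WT 3 to -0.42 without WT 1). The number lower was 3 without WT 1 or Homo 2 or 3, and the summed level was 2072 to 3743 CPM in wild type and 1452 to 1939 in homozygotes. Hist1h4c stood at 168, 88.8 and 84.5 CPM in wild-type libraries, 43.5, 39.4 and 22.9 in heterozygous ones and 43.5, 36.6 and 31.9 in homozygous ones (log2 fold change -1.61, SE 0.27, adjusted p = 0.00336). In Hist1h4c wild-type library 1 was the highest, and all wild-type libraries lay above all others. Histone genes are near-identical copies, so counts of single members are uncertain.

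A larger share of features was called higher on chromosome X than on the autosomes. In male meiosis the X is silenced in spermatocytes and stays low in round spermatids. Of 902 X features tested, 182 were higher (20.2%) and 22 lower (2.44%), against 9.199% and 11.5% of 19796 autosomal features. The median log2 fold change was 0.25 on the X, 0.13 over 66 Y features and -0.025 on autosomes. With the GC trend removed, 94 of the 902 X features were higher and 15 lower, with a median of 0.14. In that fit 1295 of all 20782 features were higher and 1294 lower, and the autosomal median was 0.0058. The number of X features higher was 119 without WT 1, 108 without WT 2, 81 without Homo 2 and 77 without Homo 3. The X median stayed between 0.20 and 0.28 with any 1 library left out. Within the lowest decile of GC content the median was 0.40 for 174 X genes and 0.29 for autosomal genes, and in the fifth 0.17 and 0.017. Few X genes lie in the highest decile, 16, where the medians were -0.35 and -0.40.

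Named X genes had various roles. Hs6st2 (chrX:51387212-51681856, minus strand) stood at 9.495, 11.01 and 10.5 CPM in wild-type libraries, 24.0002, 20.2 and 22.9 in heterozygous ones and 21.1, 19.8 and 22.7 in homozygous ones (log2 fold change 1.04, SE 0.11, adjusted p = 1.69e-04), and the kinase Nrk at 10.5, 11.9 and 12.96 CPM in wild-type libraries, 31.1, 20.99 and 23.2 in heterozygous ones and 19.05, 27.6 and 27.7 in homozygous ones (log2 fold change 1.07, SE 0.18, adjusted p = 0.00276). Fmr1, the RNA-binding protein lost in fragile X syndrome, rose from 33.4 ± 3.61 to 54.4 ± 3.89 CPM (log2 fold change 0.70, SE 0.11, adjusted p = 0.00227), and Scml2, a germline Polycomb protein, rose from 52.9 ± 2.26 to 79.2 ± 6.22 CPM (log2 fold change 0.58, SE 0.093, adjusted p = 0.0024004). Apln, a peptide hormone, was among the 22 lower X features and fell from 19.4 ± 4.35 to 3.77 ± 0.911 CPM (log2 fold change -2.37, SE 0.30, adjusted p = 6.35e-04). Apln, Fmr1 and Scml2 were chosen after their values were seen. All 3 homozygous libraries of Hs6st2 and Nrk exceeded all wild-type ones.

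**Figure D4:**
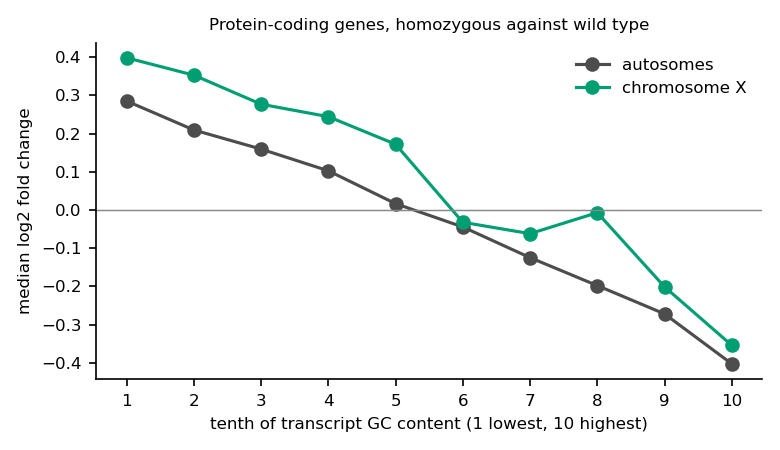
Median log2 fold change, homozygous against wild type, of protein-coding genes on chromosome X and on autosomes within each decile of transcript GC content. The X median lies above the autosomal one in every decile, by the least in the sixth (-0.032 and -0.044, 38 X genes).

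Translation and energy genes showed many small differences. Of 78 cytoplasmic ribosomal protein genes, 22 fell and 9 rose (median -0.13; with the GC trend removed, 7 higher, 12 lower, median -0.10; alternatives from -0.18 without WT 2 to -0.026 with the length trend removed). The lower count became 4 without Homo 3, 8 without Homo 2 and 10 without WT 1, and the number higher 3 without WT 2 or Homo 2, 4 without WT 3 or Homo 3 and 5 without WT 1. Rplp0, the stalk scaffold, stood at 593, 495 and 488 CPM in wild-type libraries, 199.8, 224 and 196 in heterozygous ones and 218, 259.95 and 205 in homozygous ones (log2 fold change -1.21, SE 0.12, adjusted p = 9.07e-05), and its wild-type libraries lay above all others. Rpl23a rose from 22.2 ± 1.23 to 39.6 ± 3.304 CPM (log2 fold change 0.84, SE 0.16, adjusted p = 0.00608). Ribosomal protein genes have many processed pseudogenes that share their sequence, so single members are uncertain. Of 75 mitochondrial ribosomal genes, 19 fell and 6 rose (median -0.11; with the GC trend removed, 5 higher, 13 lower, median -0.080; alternatives from -0.16 without WT 2 to -0.016 without WT 1). With fewer libraries, the lower count was 3 without Homo 3, 4 without Homo 2, 6 without WT 1 and 12 without WT 2, the number higher 3 without WT 2 or 3 or Homo 2 or 3. Mrpl54 fell from 85.99 ± 5.25 to 53.4 ± 4.29 CPM (log2 fold change -0.69, SE 0.10, adjusted p = 0.00171).

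Nuclear genes of the respiratory chain fell in 14 and rose in 6 of 74 (median -0.19; with the GC trend removed, 2 higher, 14 lower, median -0.067; alternatives from -0.22 without WT 2 to -0.067 with the GC trend removed). In left-out fits the number lower was 4 without Homo 3, 5 without Homo 2 and 8 without WT 1, the number higher 1 without Homo 2 or 3, 2 without WT 2 and 3 without WT 3. Ndufa12, a complex I subunit, stood at 114, 86.9 and 73.5 CPM in wild-type libraries, 38.3, 33.9 and 22.04 in heterozygous ones and 39.98, 23.01 and 43.9 in homozygous ones (log2 fold change -1.36, SE 0.25, adjusted p = 0.00459), and Ndufa4 rose from 16.2 ± 1.21 to 25.6 ± 1.93 CPM (log2 fold change 0.66, SE 0.10, adjusted p = 0.00181). Transcripts of the mitochondrial genome had a median of 0.28, and -0.017 with the GC trend removed, with 4 higher and 1 lower of 14 (1 and 1 with the trend removed). Without WT 1 the median was 0.55, without WT 2 0.17 and without WT 3 0.13. The number higher was 8 without WT 1. mt-Cytb rose from 426 ± 37.2 to 651 ± 9.698 CPM (log2 fold change 0.61, SE 0.10, adjusted p = 0.00282), a call lost with the GC trend removed. The glycolysis isozymes of germ cells fell in 4 of 15 (median -0.19; with the GC trend removed, 1 higher, 1 lower, median -0.24; alternatives from -0.24 without Homo 1 to -0.090 with the length trend removed). Aldoart2, a spermatid aldolase, fell from 194 ± 11.4 to 117 ± 5.602 CPM (log2 fold change -0.73, SE 0.14, adjusted p = 0.00664).

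Genome maintenance genes rose more often than they fell. DNA damage response and repair genes rose in 9 and fell in 1 of 38 (median 0.21; with the GC trend removed, 9 higher, 0 lower, median 0.12; alternatives from 0.11 with the length trend removed to 0.26 without WT 1), and the number higher was 5 without WT 3. Brca1 rose from 32.9 ± 0.511 to 47.5 ± 3.63 CPM (log2 fold change 0.53, SE 0.083, adjusted p = 0.002098) and the kinase Atm from 42.03 ± 2.66 to 60.8 ± 2.86 CPM (log2 fold change 0.53, SE 0.091, adjusted p = 0.00347), both with the homozygous libraries above all wild-type ones. H2afx, the histone marked at DNA breaks and on the silenced sex chromosomes, was the 1 gene of this list that fell (488 to 232 CPM, log2 fold change -1.07; adjusted p = 0.1197 without WT 1, 0.114 without Homo 2, 0.104 without Homo 3; -0.58 with the GC trend removed). Replication genes rose in 5 and fell in 1 of 32 (median 0.16; with the GC trend removed, 4 higher, 1 lower, median 0.13; alternatives from 0.13 without WT 3 to 0.27 without WT 1), and the number higher was 3 without WT 2 or 3 or Homo 2 or 3. The checkpoint kinase Chek1 rose from 8.09 ± 1.19 to 12.96 ± 0.0598 CPM (log2 fold change 0.68, SE 0.15, adjusted p = 0.0103). Genes of the piRNA pathway rose in 9 of 34, with a median of 0.056 (3 higher and 0.079 with the GC trend removed). The higher count became 1 without WT 2 or 3 or Homo 2 or 3 and 4 without Homo 1. Tex15, which also acts in recombination, rose from 342 ± 35.1 to 478 ± 9.22 CPM (log2 fold change 0.48, SE 0.11, adjusted p = 0.0115), a call lost with the GC trend removed (0.19).

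Set side by side, the lists differed in how far the GC trend reached into them. As with junction and interferon genes, the called share was below the 20.8% of all features in the interstitial fibroblast (18.8%), ER-Golgi transport (16.1%), radial spoke (19.15%), manchette (17.9%), sperm ion channel (3.704%), replication (18.8%) and undifferentiated spermatogonial (15.4%) lists, so the sum of their calls shows no excess. It was 21.4% in the peritubular, 23.8% in the pachytene, 25% in the macrophage and 25.6% in the matrix list. Acrosomal enzyme (25.8%), DNA repair (26.3%) and piRNA pathway (26.5%) lists were also near the share of all features. Leydig cell genes and kallikreins had medians of -1.04 and -1.73, which became -1.06 and -1.66 with the GC trend removed. Synaptonemal, mitochondrial genome, kinase and tubulin lists had medians nearer 0 in the same step. Sertoli and matrix lists moved away from 0, to 0.20 and 0.27. The remaining 16 lists, among them hormone, hedgehog, TGF-beta and retinoid signalling, stress, proteasome and kinesins, held 410 tested members, of which 39 were higher and 48 lower (21.2%; median -0.040), close to the 20.8% of all features. Single lists ran from 10.3% (chaperones) to 33.3%. Androgen-responsive Sertoli genes (33.3%) fell in 2 of 6 (median -0.25, with the GC trend removed 2 lower and -0.18). Germ cell transcription regulators (33.3%) rose in 3 and fell in 4 of 21 (with the trend removed 1 and 1). Prostaglandin genes (33.3%) rose in 2 and fell in 4 of 18 (0 and 2 in that fit). Fatty acid genes fell in 7 and rose in 1 of 32 (median -0.23, in that fit 6 lower and -0.13). Left-out fits gave 3 to 8 lower.

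**Figure D5:**
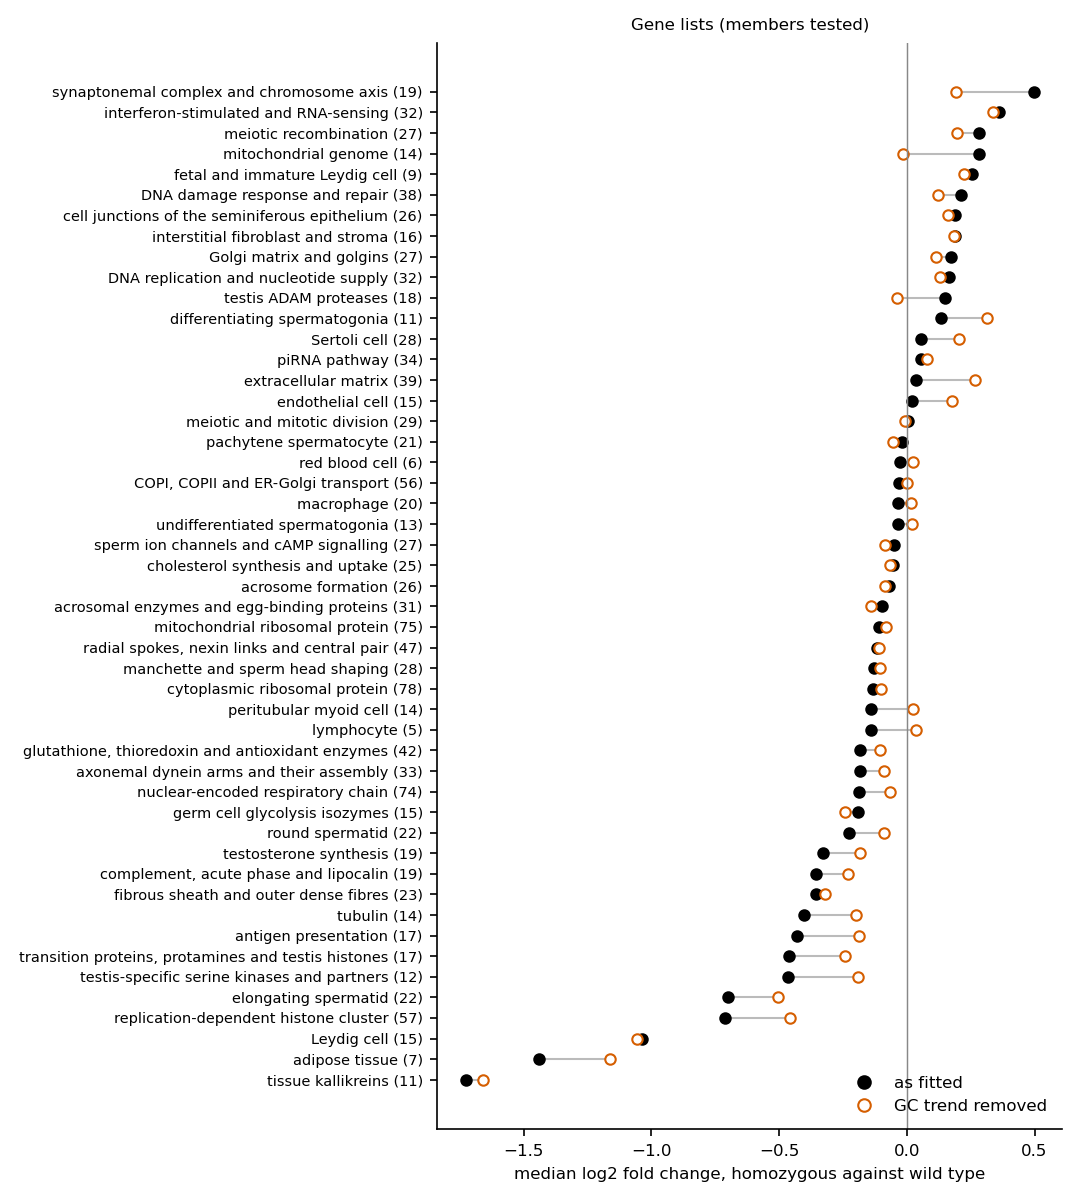
Median log2 fold change, homozygous against wild type, of gene lists with at least 5 members tested (numbers in brackets), as fitted (black) and with the GC trend of each library removed (open orange). The 16 remaining lists, which the text gives as a sum, are not drawn. Kallikrein, adipose and Leydig cell lists keep medians under -1, the synaptonemal list moves from 0.50 to 0.19 and the mitochondrial genome from 0.28 to -0.017.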

How the data were processed

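Long RNA of testis in 9 libraries, which the labels do not tie to single animals or pools, was read with a stranded total RNA kit after ribosomal depletion. The authors deposited raw counts per feature, not normalized. Per the file headers, featureCounts 1.6.2 counted paired fragments over whole gene bodies on the reverse strand, introns included, with no option for fragments that match several places. Counted features were 49585 GENCODE genes with 466 piRNA precursors, and coordinates are those of the mm10 build. The submitters' processing notes name HISAT2 2.1.0 and cutadapt 1.18 among other tools, without roles.

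The counts were analysed with edgeR 4.0.16 in R 4.3.3: filterByExpr by group left 20782 features, libraries were scaled by TMM, all 9 libraries entered 1 quasi-likelihood fit, and homozygotes were contrasted with wild type. P-values were adjusted over all features by Benjamini-Hochberg, with a threshold of 0.05, and come from edgeR except where DESeq2 (1.42.0) is given. A standard error is the log2 fold change divided by the square root of F. Groups came from the genotype labels. Depth was 21684791 to 41513634 counts per library.

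The 66 gene lists, the members and the rules were chosen with earlier results of these data known, so no count of a list is independent evidence. Named genes were, first, protein-coding genes that passed, changed at least 2-fold, did not overlap between groups and reached 10 CPM, 15 in each direction by adjusted p. Second came up to 3 members per list and direction with the lowest p, and last 22 genes fixed by name. The following were named after their values were seen or to complete a list: Sult1e1, Adh1, Aldh1a1, Prlr, Gstm2, Cst9, Akap4, Gsg1, 6 Klk1b genes, the Tuba3 pair, Apln, Fmr1, Scml2 and all genes of the other observations. GC content came from transcripts of GENCODE M21 for 99.4% of tested features, and promoters from RefSeq GRCm38.p6. A library's GC or length trend was a lowess curve (span 0.3) of its deviation from the mean of all libraries, entered as an offset. The other alternatives were RLE scaling, no scaling, DESeq2, no filter, a mean of 1 CPM, both strands summed, only the 6 libraries compared, a 2-fold limit and each library left out. On simulated data (20573 features, homozygous against wild type), the fit recovered 84 of 100 genes changed 2-fold and 100 of 100 changed 4-fold, with 11 false calls. The simulated libraries carried no GC or length trend, so this number of false calls does not cover calls that move with such a trend. Some genes that the rule names are not reported here.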

Additional observations from a re-analysis of the deposited data

How the results depend on the processing

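Each result was recomputed under 19 alternatives, 17 of them planned and 2, the removal of GC and of length trends, added after the data were seen. Of 1011 recomputed main values (counts of calls and medians of lists and chromosomes), 874 stayed within the spread between libraries or within 1.5 times of the count.

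In a test against a 2-fold limit, 72 features were called, 6 features were higher and 66 features were lower. With the GC trend removed, 2589 features were called, 1295 features were higher and 1294 features were lower, and the median log2 fold change was 0.20 for Sertoli cell, 0.023 for peritubular myoid cell, 0.18 for endothelial cell, -1.16 for adipose tissue, 0.31 for differentiating spermatogonia, 0.19 for synaptonemal complex and chromosome axis, 0.19 for meiotic recombination, -0.51 for elongating spermatid, 0.11 for Golgi matrix and golgins, -0.32 for fibrous sheath and outer dense fibres, -0.19 for testis-specific serine kinases and partners, -0.037 for testis ADAM proteases, -0.24 for transition proteins, protamines and testis histones, -0.19 for testosterone synthesis, -0.24 for germ cell glycolysis isozymes, -0.067 for nuclear-encoded respiratory chain, -0.017 for mitochondrial genome, 0.12 for DNA damage response and repair, -0.19 for antigen presentation, -0.23 for complement, acute phase and lipocalin, 0.27 for extracellular matrix, -0.20 for tubulin, 0.14 for X features and 0.0058 for autosome features. With the gene length trend removed, the median log2 fold change was -1.34 for adipose tissue, 0.39 for synaptonemal complex and chromosome axis, 0.21 for meiotic recombination, 0.097 for Golgi matrix and golgins, -0.19 for manchette and sperm head shaping, -0.14 for sperm ion channels and cAMP signalling, -0.36 for testis-specific serine kinases and partners, -0.35 for transition proteins, protamines and testis histones, -0.090 for germ cell glycolysis isozymes, 0.11 for DNA damage response and repair, -0.33 for antigen presentation, 0.058 for cell junctions of the seminiferous epithelium, -0.075 for extracellular matrix, 0.11 for piRNA pathway, -0.026 for cytoplasmic ribosomal protein and -0.046 for autosome features. Without scaling, the median log2 fold change was 0.33 for meiotic recombination, -0.016 for acrosome formation, -0.31 for fibrous sheath and outer dense fibres, -0.087 for manchette and sperm head shaping, 0.0041 for sperm ion channels and cAMP signalling, -0.42 for testis-specific serine kinases and partners, -0.41 for transition proteins, protamines and testis histones, -0.14 for germ cell glycolysis isozymes, 0.26 for DNA damage response and repair, 0.24 for cell junctions of the seminiferous epithelium, 0.11 for piRNA pathway and 0.025 for autosome features. With a mean of at least 1 CPM required, the median log2 fold change was -1.69 for epididymis, -0.40 for adipose tissue, 0.10 for undifferentiated spermatogonia, -0.43 for transition proteins, protamines and testis histones, 0.30 for interferon-stimulated and RNA-sensing, -0.26 for complement, acute phase and lipocalin and 0.38 for Y features. With both strands summed, the median log2 fold change was 0.26 for lymphocyte, -1.65 for epididymis, -0.89 for adipose tissue, 0.045 for undifferentiated spermatogonia, 0.30 for interferon-stimulated and RNA-sensing and -0.31 for antigen presentation. Without a filter, the median log2 fold change was -0.039 for Sertoli cell, -0.44 for epididymis, -0.15 for undifferentiated spermatogonia, 0 for Y features and -0.015 for autosome features. In a fit of the 6 libraries compared, the median log2 fold change was -1.68 for epididymis, -0.42 for transition proteins, protamines and testis histones, 0.27 for Y features and -0.0072 for autosome features. In DESeq2, the median log2 fold change was -0.017 for autosome features. With RLE scaling, the median log2 fold change was -0.017 for autosome features. The cause of these shifts was not tested.

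With 1 library left out at a time, the fits gave 1805 to 4737 features called, 796 to 2143 features higher and 1009 to 2661 features lower. Medians ranged over 0.17 to 0.26 for DNA damage response and repair, 0.14 to 0.22 for Golgi matrix and golgins, -0.052 to 0.12 for Sertoli cell, 0.20 to 0.28 for X features, 0.061 to 0.28 for Y features, -0.096 to -0.011 for acrosome formation, -1.46 to -1.02 for adipose tissue, -0.50 to -0.30 for antigen presentation, -0.033 to -0.016 for autosome features, 0.14 to 0.20 for cell junctions of the seminiferous epithelium, -0.17 to -0.034 for cholesterol synthesis and uptake, -0.42 to -0.26 for complement, acute phase and lipocalin, -0.18 to -0.055 for cytoplasmic ribosomal protein, 0.048 to 0.23 for differentiating spermatogonia, -0.79 to -0.58 for elongating spermatid, -0.081 to 0.079 for endothelial cell, -5.80 to 0.14 for epididymis, 0.024 to 0.076 for extracellular matrix, 0.087 to 0.26 for fetal and immature Leydig cell, -0.36 to -0.30 for fibrous sheath and outer dense fibres, -0.24 to -0.11 for germ cell glycolysis isozymes, 0.28 to 0.40 for interferon-stimulated and RNA-sensing, -0.26 to 0.0074 for lymphocyte, -0.19 to -0.083 for manchette and sperm head shaping, 0.26 to 0.34 for meiotic recombination, 0.13 to 0.55 for mitochondrial genome, -0.22 to -0.11 for nuclear-encoded respiratory chain, -0.18 to -0.064 for peritubular myoid cell, 0.019 to 0.14 for piRNA pathway, -0.13 to -0.027 for sperm ion channels and cAMP signalling, 0.44 to 0.53 for synaptonemal complex and chromosome axis, 0.059 to 0.19 for testis ADAM proteases, -0.52 to -0.43 for testis-specific serine kinases and partners, -0.41 to -0.30 for testosterone synthesis, -2.08 to -1.55 for tissue kallikreins, -0.46 to -0.41 for transition proteins, protamines and testis histones, -0.48 to -0.21 for tubulin and -0.10 to 0.054 for undifferentiated spermatogonia. Signs turned for 4 genes, none of them called. Crem stood at 0.092 as fitted and at -0.028 with the length trend removed and -0.068 with the GC trend removed (0.033 to 0.13 over left-out libraries). Hsd3b6 stood at 0.14 as fitted and at -0.060 without Homo 2 (-0.060 to 0.24 over left-out libraries). Prlr stood at 0.0072 as fitted and at -0.12 with the length trend removed, -0.24 with the GC trend removed, -0.064 without WT 1, -0.0033 without WT 3, -0.051 without Homo 2 and -0.050 without Homo 3 (-0.064 to 0.11 over left-out libraries). Tnp1 stood at -0.050 as fitted and at 0.063 with the length trend removed, 0.026 without WT 2, 0.13 without WT 3 and 0.11 without Homo 1 (-0.28 to 0.13 over left-out libraries). Of 263 called genes under the naming rule, 169 kept their call with the GC trend removed, 234 with the length trend removed, 260 in DESeq2, 248 without scaling, 177 without Homo 3 (homozygous library 3) and 17 in the test against a 2-fold limit. No paired analysis was possible because the labels number the RNA-seq libraries in 1 run from 1 to 9 across the groups, and the numbers 1 to 3 used here only name libraries within a group. Genes of few counts limit the precision, as in the epididymis, lymphocyte and adipose lists.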

Other observations

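Some long noncoding RNAs nearly vanished or fell strongly in both mutant groups. The intergenic RNA 4933431M02Rik (chr6:107627774-107632549, plus strand) stood at 40.02, 38.6 and 41.1 CPM in wild-type libraries, 0.3203, 0.301 and 0.516 in heterozygous ones and 0.602, 0.4196 and 0.5005 in homozygous ones (log2 fold change -6.29, SE 0.17, adjusted p = 7.03e-10, edgeR quasi-likelihood test with Benjamini-Hochberg adjustment). The antisense RNA 1700021J08Rik (chr4:117002166-117003012, minus strand) stood at 4.53, 5.61 and 5.14 CPM in wild-type libraries, 0.0229, 0.134 and 0 in heterozygous ones and 0, 0.03496 and 0.0385 in homozygous ones (log2 fold change -7.49, SE 0.53, adjusted p = 7.15e-06), and with a homozygous library at 0 its fitted fold change is no bound. 1700029M03Rik stood at 9.16, 11.3 and 10.7 CPM in wild-type libraries, 0.938, 1.24 and 1.17 in heterozygous ones and 1.204, 1.12 and 1.19 in homozygous ones (log2 fold change -3.14, SE 0.17, adjusted p = 7.63e-07). In all 3 the heterozygous libraries lay with the homozygous ones, and the calls held with the GC trend removed and without any single library.

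Among short structured RNAs more were lower than higher. Of 27 small nuclear RNA features tested 12 were lower and 2 higher, of 18 miscellaneous RNAs 7 and 0, and of 3 ribozymes 3 and 0, against 11.1% lower and 9.68% higher over all features. Rmrp, the RNA of RNase MRP, stood at 6802, 4216 and 3662 CPM in wild-type libraries, 3136, 1856 and 1128 in heterozygous ones and 2162, 1373 and 1518 in homozygous ones (log2 fold change -1.54, SE 0.33, adjusted p = 0.00903). Rpph1, the RNA of RNase P, stood at 5103, 3268 and 3080.5 CPM in wild-type libraries, 2789.9, 1209 and 1094 in heterozygous ones and 1837, 910.1 and 1297 in homozygous ones (log2 fold change -1.50, SE 0.35, adjusted p = 0.0128; adjusted p = 0.0598 without Homo 2, 0.0511 without Homo 3). Rn7sk, which holds back transcription elongation, stood at 40665, 23914 and 21158 CPM in wild-type libraries, 22503, 16005 and 12810.0 in heterozygous ones and 17509.7, 13824 and 13351 in homozygous ones (log2 fold change -0.94, SE 0.25, adjusted p = 0.0234; adjusted p = 0.07598 without WT 1, 0.0915 without Homo 2, 0.0883 without Homo 3; 0.0748 with the GC trend removed). In these 3 RNAs wild-type library 1 was the highest of all 9, and the group ranges of wild type and homozygotes did not overlap. The minor spliceosome RNA Rnu12 stood at 178, 99.6 and 103 CPM in wild-type libraries, 87.2, 51.9 and 37.3 in heterozygous ones and 62.9, 39.7 and 64.02 in homozygous ones (log2 fold change -1.19, SE 0.30, adjusted p = 0.0178; adjusted p = 0.0732 without WT 1, 0.076999 without Homo 2). Copies of small nuclear RNA genes share sequence, so their levels are uncertain.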
